A study of Macaca mulatta with 20 samples.

Results

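Cells answer broken or altered DNA with a set of sensors, kinases and repair enzymes, and 40 genes of that set were followed here in the blood of irradiated rhesus macaques. The genes were listed by symbol for their known roles, and no measured value entered the rule, although the list was drawn up with earlier results of these data known. A gene was tested if at least 1 of its array probes was well above background on at least 5 of the 20 arrays, and it was then represented by its brightest probe. This left 36 of the 40 genes, out of 15929 genes with a tested probe in the whole series. RNF168, LIG4, BRCA2 and LIG3 were not tested: their best probes were well above background on 3, 2, 0 and 1 arrays.

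The study asked how the blood transcriptome responds over a month when only the chest is irradiated. Whole blood of male rhesus macaques was drawn before irradiation and 2, 5 and 30 days after 10 Gy of X-rays to the whole thorax, in animals given no mitigating drug, with 5 arrays for each of the 4 times. RNA was depleted of globin transcripts and hybridised to human arrays of 60-base probes, so a probe that differs from the macaque transcript can read low. The same replicate number was taken as the same animal, except that 1 array, which the labels do not name, holds RNA pooled from a pair of animals. The irradiated arrays have no unirradiated arrays of the same day beside them, so time and repeated bleeding cannot be told apart from irradiation.

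Double-strand breaks are bound by the MRN complex, which recruits the kinase ATM, while ATR answers single-stranded DNA, and both pass the signal through CHEK2 and CHEK1. Breaks are then rejoined directly by non-homologous end joining or copied from the sister chromatid by homologous recombination, and damaged bases, single-strand breaks, bulky adducts and mismatches have pathways of their own. Circulating lymphocytes are mostly resting and die readily after irradiation, whereas granulocytes are short-lived and replaced from the marrow.

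The probes behind the main readings are shown so that the measured stretch of each transcript can be seen, with their positions on the human genome (hg19) as the array files give them. PARP1 and ERCC2 were read by probes at separate sites that gave close values at day 30, the CHEK2 probes gave different values at day 2, and TP53BP1, MSH6, MRE11A and RAD50 had 1 tested probe each. All are 60 bases, written 5′ to 3′ in lower case with no base marked.
PARP1, brightest probe, chr1:226589945-226590004, minus strand: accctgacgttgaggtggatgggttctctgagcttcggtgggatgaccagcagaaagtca
PARP1, second probe, chr1:226549161-226549220, minus strand: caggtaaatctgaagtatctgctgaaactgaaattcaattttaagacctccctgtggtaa
ERCC2, brightest probe, chr19:45864815-45864874, minus strand: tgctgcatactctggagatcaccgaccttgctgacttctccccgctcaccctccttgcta
ERCC2, second probe, chr19:45856515-45856574, minus strand: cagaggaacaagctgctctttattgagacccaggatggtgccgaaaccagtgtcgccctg
CHEK2, brightest probe, chr22:29085145-29090020, minus strand: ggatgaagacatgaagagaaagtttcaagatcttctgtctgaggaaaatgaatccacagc
CHEK2, second probe, chr22:29121275-29121334, minus strand: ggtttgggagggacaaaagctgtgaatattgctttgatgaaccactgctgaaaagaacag
TP53BP1, chr15:43699751-43700182, minus strand: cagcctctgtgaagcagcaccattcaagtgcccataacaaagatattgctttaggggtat
MSH6, chr2:48033919-48033978, plus strand: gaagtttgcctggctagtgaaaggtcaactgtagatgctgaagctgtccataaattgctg
MRE11A, chr11:94192656-94192715, minus strand: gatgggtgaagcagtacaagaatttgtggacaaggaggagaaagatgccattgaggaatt
RAD50, chr5:131976479-131977910, plus strand: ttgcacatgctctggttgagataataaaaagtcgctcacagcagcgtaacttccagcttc
The 60 bases of the brightest CHEK2 probe and of the TP53BP1 and RAD50 probes lie over 4876, 432 and 1432 genomic bases, so these probes cross an intron and read spliced RNA, while the others lie in 1 unbroken stretch. Matches of the probes to the macaque genome, or to repeated sequence, were not analysed here.

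Of the 36 genes, 32 were well above background on all 20 arrays. CHEK1 reached that on 17 arrays, FANCA on 19, NBN on 13 and FEN1 on 8, so values of the last 2 are the least certain. No probe of the set was saturated. Signal is given below as log2 of the processed signal minus the 75th percentile of the same array. It compares arrays for 1 gene and not genes with each other. The replicate arrays of a group differed by a median SD of 0.29 log2 over the 36 genes, from 0.18 (POLB) to 0.64 (FEN1), against 0.39 over all genes. All 20 arrays had 50.9% to 67.3% of their spots well above background, the highest on day 5 replicate 3. Each slide held 1 array of every group, always in the same place, so the position on the slide and the group cannot be told apart.

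None of the 36 genes passed the study's threshold (p under 0.005 with a false discovery rate under 10%) at day 2, day 5 or day 30, where 0.0691%, 0% and 0% of all genes did. With these cut-offs the study itself reported far more genes on each day, by paired class comparison in BRB Array Tools. The test used here and the probes it covered were not matched to the study's, so these shares do not measure the study's own result. The lowest adjusted p among them was 0.242 at day 2, 0.331 at day 5 and 0.177 at day 30, by limma with each replicate number as a pair. The size of change was small throughout: the largest difference from pre-irradiation was 0.62 log2 at day 2, 0.54 at day 5 and 0.58 at day 30, against a median standard error of 0.17, 0.17 and 0.19. The values below are therefore descriptions of size and direction, and p-values named unadjusted are not calls.

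More of the genes were lower than higher. On average 25 of 36 genes were lower at day 2, where 54.8% of all genes were. The count was 24 of 36 at day 5, against 45.5%, and 20 of 36 at day 30, against 52.1%. The median over the genes of the mean log2 change was -0.21 at day 2, -0.09 at day 5 and -0.05 at day 30. Over all genes it was -0.04, 0.03 and -0.02. Within the pairs, the day 2 medians were -0.17, -0.16, -0.21, -0.13 and -0.18 for replicates 1 to 5, so each pair was lower. The day 5 medians were -0.19, -0.19, -0.06, 0.01 and -0.13. The day 30 medians were -0.33, -0.09, -0.15, 0.03 and -0.10, with replicate 4 just above 0 on both days. These medians of single pairs had SDs of 0.03, 0.09 and 0.13 at days 2, 5 and 30. The SDs do not measure the spread of the medians of mean changes given before them. At an unadjusted p under 0.05 stood 9 of 36 genes at day 2 (background 14.8%), 4 at day 5 (11%) and 3 at day 30 (18%). As shares these were 25%, 11.1% and 8.33%. In the direction of lower signal the counts were 7 (background 6.22%), 4 (3.79%) and 2 (10.3%), and for higher signal 2 (8.54%), 0 (7.24%) and 1 (7.67%). The day 2 count was smaller with any replicate left out: it was 3, 4, 3, 4 and 2 without replicates 1, 2, 3, 4 and 5 in turn. The day 5 count was 7 without replicate 5. Fewer pairs and other animals in the fit cannot be told apart here. Without the pairing by replicate number the counts were 5, 2 and 5. Shares over all genes were not counted for that fit or with a replicate left out. Lower in every pair were 9 of 36 genes at day 2 (background 8.27%), 9 at day 5 (5.99%) and 6 at day 30 (10.8%), and higher in every pair 0 (6.27%), 0 (7.26%) and 1 (7.7%). An unadjusted p under 0.05 together with 1 direction in every pair was met by 4 (9.15%), 4 (7.79%) and 3 (13%). Scaling each array to its median in place of the 75th percentile gave 29 lower and 7 higher genes at day 5 (median -0.21, beside -0.09 over all genes) and turned the day 30 median to 0.0097.

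**Figure D1:**
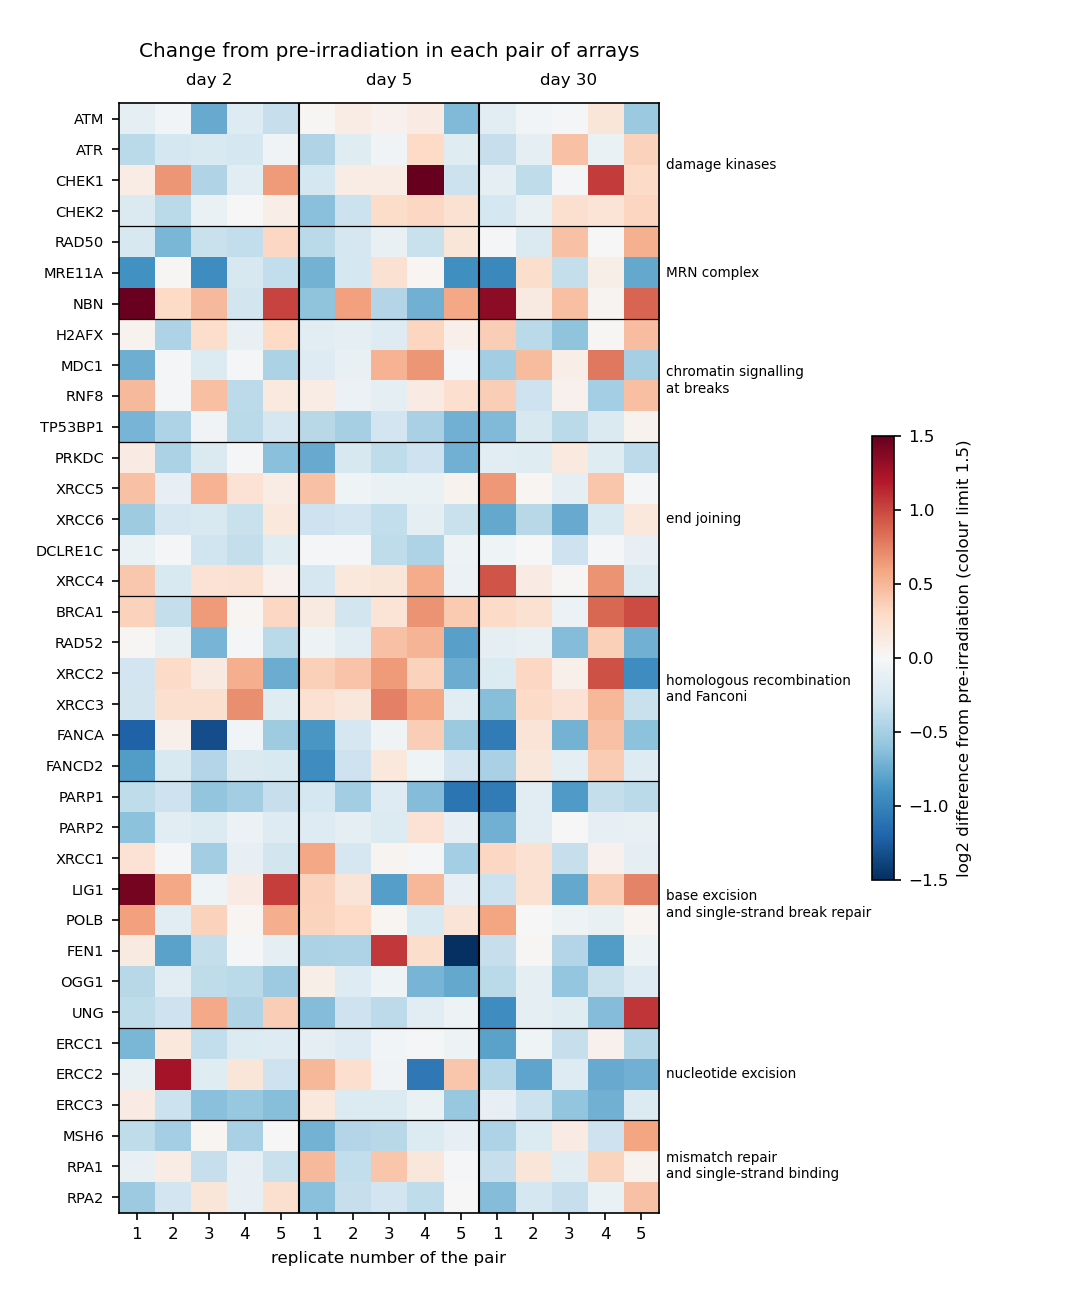
Log2 difference from pre-irradiation of each of the 36 genes (rows, grouped by role) in each of the 5 pairs (columns) at day 2, day 5 and day 30; blue is lower and red higher than before irradiation, with colours saturating at 1.5. The PARP1 row is blue in every column and most of the day 2 block is pale blue.

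Markers of blood cell types differed on the same arrays. The 17 genes of T and NK cells were all lower at day 2, with a median log2 change of -0.68, and 16 and 15 of them were lower at day 5 and day 30 (medians -0.37 and -0.32). On single arrays the median level of that list ran from 3.16 to 3.72 before irradiation and from 2.16 to 3.53 at day 2, 1.83 to 3.53 at day 5 and 2.66 to 3.34 at day 30. The 8 measured B cell genes had medians of -0.50, -0.52 and -0.42. Neutrophil genes (9 measured) were all higher on each day, with medians of 0.997, 0.64 and 0.74, and so were 9 monocyte genes (0.68, 0.42 and 0.47). Platelet genes (9 measured) had medians of 1.45, 0.44 and -0.40, erythroid genes had medians of -0.05, 0.12 and -0.73, and genes of dividing cells 0.02, 0.20 and 0.19. Of the defining markers, CD3E (T cell receptor complex) gave -0.20, -0.13 and -0.64 and CD14 (monocytes) gave 0.58, 0.43 and 0.47, PF4 (platelets) gave 1.47, 0.61 and -0.13, ALAS2 (red cell precursors) gave -0.26, 0.25 and -0.65, and MKI67 (dividing cells) gave -0.31, -0.19 and -0.20. CD3E, CD14, PF4, ALAS2 and MKI67 were well above background on all 20 arrays, whereas MS4A1 (B cells) was so on 2 and FCGR3B (neutrophils) was not analysed here. In whole blood fewer cells of a type and less RNA per cell cannot be told apart, and the part of these shifts in the values of the repair genes was not tested.

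**Figure D2:**
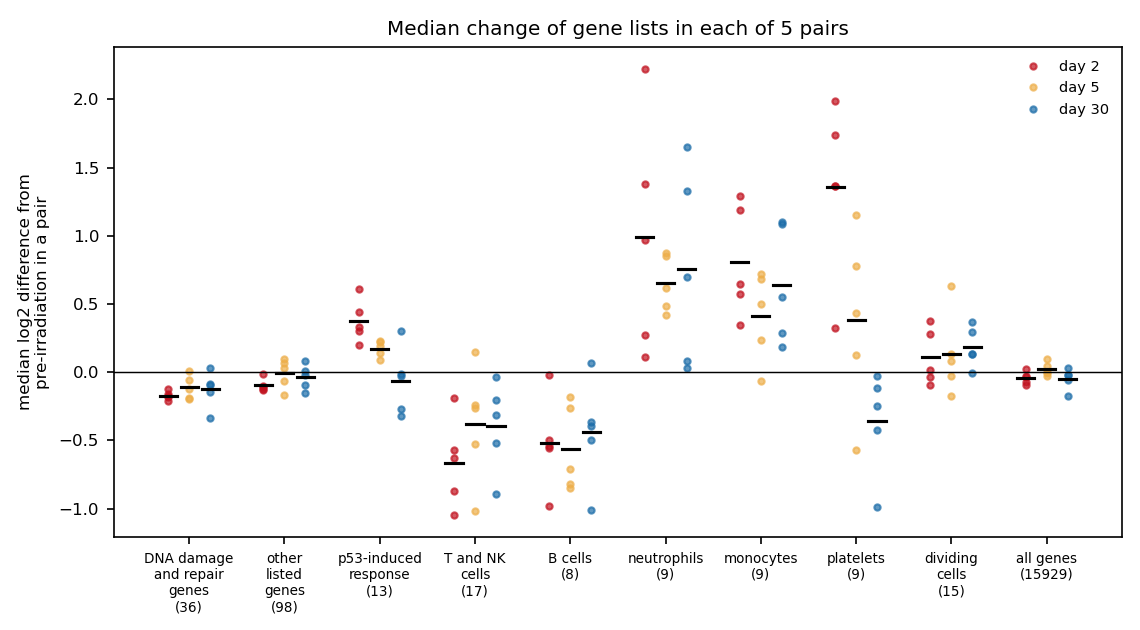
Median log2 difference from pre-irradiation of gene lists (number of genes measured in brackets) in each of the 5 pairs at day 2, day 5 and day 30; points are pairs and bars their mean, and the 13 p53-induced genes are also among the 98. The repair genes lie between -0.33 and 0.03 while the neutrophil and T cell lists spread far wider.

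**Figure D3:**
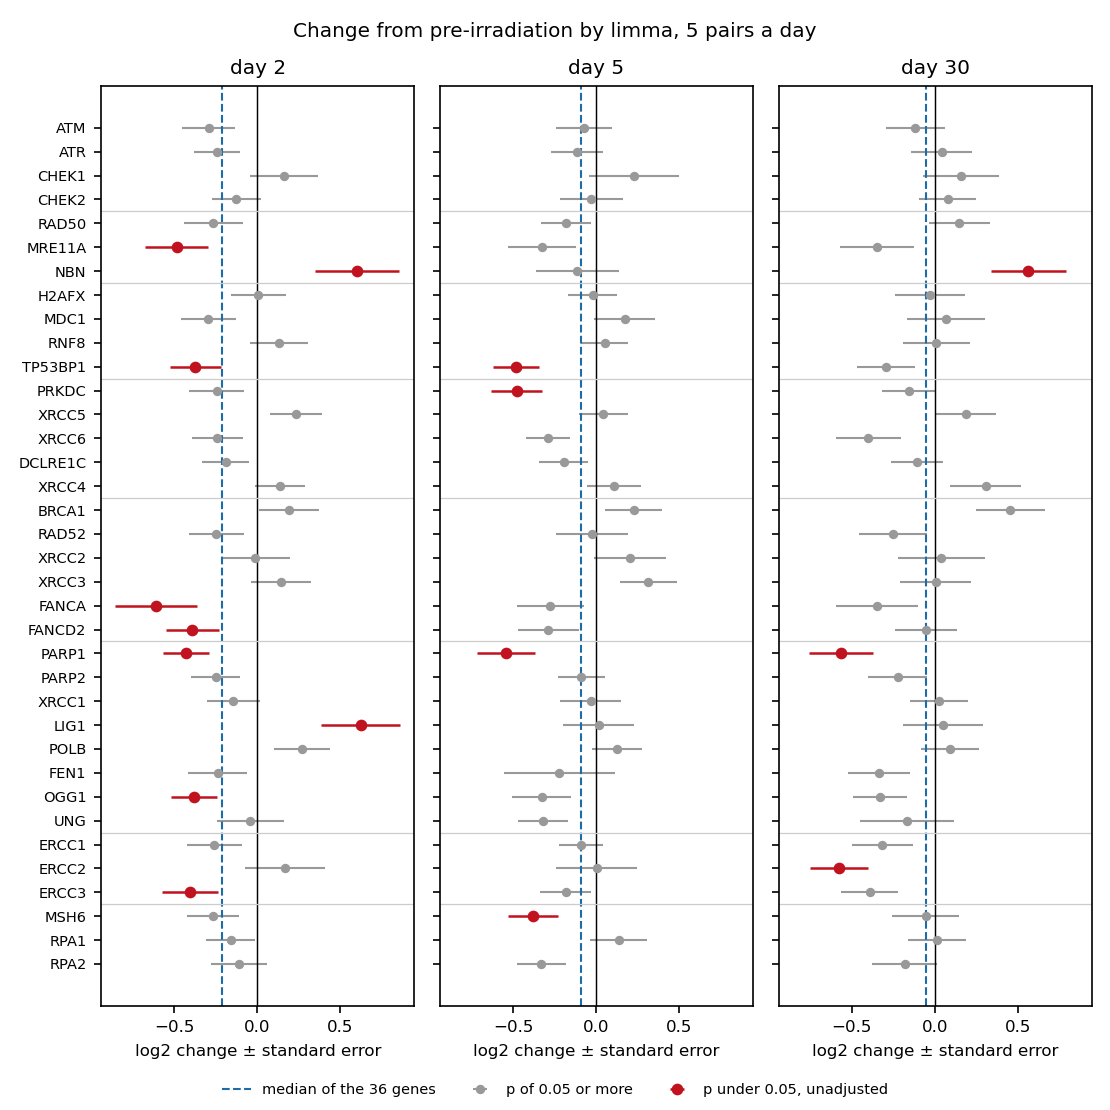
Log2 change from pre-irradiation (point) and its standard error (bar) for the 36 genes at day 2, day 5 and day 30, by limma over 5 pairs; red marks an unadjusted p under 0.05 and the dashed line the median of the genes. At day 2 the dashed line stands at -0.21 and red points number 9.

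The damage kinases showed small changes. ATM, the kinase that opens the response to double-strand breaks, read -0.19, -0.18, -0.07, 0.19 and 0.13 before irradiation in replicates 1 to 5. It read -0.32, -0.22, -0.82, -0.0012 and -0.21 at day 2, -0.17, -0.07, -0.01, 0.32 and -0.53 at day 5 and -0.34, -0.22, -0.09, 0.38 and -0.43 at day 30. Each day 2 array was below its own pre-irradiation array, replicate 3 most, but the groups overlapped, and the change was -0.29 (standard error 0.16, adjusted p = 0.425). A second ATM probe gave -0.52 at day 2 (unadjusted p = 0.012), also lower in each pair. ATR, its partner at stalled replication forks, read 1.21, 1.24, 0.63, 1.12 and 0.84 before and 0.80, 0.97, 0.40, 0.86 and 0.79 at day 2. It read 0.76, 1.06, 0.58, 1.42 and 0.66 at day 5 and 0.86, 1.11, 1.08, 1.02 and 1.19 at day 30. Day 2 was lower in all 5 pairs by a small step (-0.24), while day 30 was mixed (0.04), and the ranges overlapped on every day.

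CHEK1, the checkpoint kinase downstream of ATR, was dim: -3.33, -3.39, -3.12, -3.36 and -2.90 before, -3.22, -2.73, -3.57, -3.52 and -2.27 at day 2, -3.59, -3.27, -3.01, -1.86 and -3.22 at day 5 and -3.48, -3.77, -3.14, -2.31 and -2.61 at day 30. Replicate 4 stood high at day 5 and day 30 and replicate 5 at day 2, and the mean changes of 0.16, 0.23 and 0.16 were smaller than their standard errors of 0.20 to 0.27. CHEK2, the kinase below ATM, read -1.69, -1.37, -1.95, -1.72 and -1.93 before irradiation and -1.90, -1.78, -2.05, -1.73 and -1.83 at day 2. At day 5 it read -2.32, -1.69, -1.68, -1.42 and -1.70 and at day 30 -1.96, -1.48, -1.71, -1.52 and -1.61. These overlapped throughout, with changes of -0.13, -0.03 and 0.08. The second CHEK2 probe gave -0.85 at day 2, lower in all 5 pairs (unadjusted p = 0.0084), then -0.65 and -0.44, and the difference between the probes was not tested. It was the dimmer probe, with a mean of -2.58 before irradiation, and was well above background on 19 arrays.

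In the MRN complex, which holds broken ends, the 3 subunits differed in sign at days 2 and 30 and were all lower at day 5. RAD50, the ATPase that bridges the ends, read -1.70, -1.11, -1.79, -1.14 and -1.76 before irradiation and -1.94, -1.80, -2.12, -1.51 and -1.45 at day 2. It read -2.10, -1.36, -1.91, -1.47 and -1.57 at day 5 and -1.72, -1.33, -1.35, -1.14 and -1.22 at day 30. Replicate 5 was higher and the other 4 lower at day 2 (-0.26), and at day 30 all 5 arrays stood above their day 2 arrays (0.41, standard error 0.14, adjusted p = 0.363), a difference that normexp, a model-based correction of the raw signal for local background, took to 0.01. MRE11A, the nuclease subunit, was lower in 4 of 5 pairs at day 2 (-0.48, standard error 0.19, adjusted p = 0.300), with the widest gaps in replicates 1 and 3, and had -0.33 and -0.35 later. Normexp background correction took the day 2 change of MRE11A to -0.02. NBN, the subunit that recruits ATM, read -3.93, -3.23, -3.79, -3.64 and -3.88 before irradiation, and -2.45, -2.94, -3.30, -3.91 and -2.86, -4.54, -2.62, -4.23, -4.36 and -3.29 and -2.59, -3.10, -3.34, -3.61 and -3.00 at days 2, 5 and 30. Day 30 exceeded pre-irradiation in all 5 pairs (0.57, standard error 0.23, adjusted p = 0.253), day 2 in 4 of 5 (0.60), and day 5 in only 2 (-0.11). Without replicate 1 the day 30 and day 2 changes were 0.37 and 0.38, and normexp gave 0.32 at day 30. Its probe was well above background on 2, 4, 2 and 5 of the 5 arrays of these groups, so the lower readings were near the detection limit.

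Among the genes that mark chromatin around a break, TP53BP1, which steers breaks towards end joining, was lower. It read 0.91, 0.94, 0.38, 1.03 and 0.66 before irradiation, 0.22, 0.48, 0.33, 0.62 and 0.41 at day 2 and 0.49, 0.44, 0.10, 0.55 and -0.06 at day 5. At day 30 it read 0.24, 0.70, -0.02, 0.82 and 0.72. All 5 pairs were lower at day 2 (-0.37, standard error 0.15, adjusted p = 0.314) and at day 5 (-0.48, standard error 0.14, adjusted p = 0.331), with replicate 3 starting low so that the groups overlapped. At day 30 the change was -0.29, and replicate 5 stood slightly above its starting level. H2AFX, the histone variant phosphorylated at breaks, read 4.26, 4.64, 4.48, 4.50 and 4.18 before irradiation and 4.31, 4.18, 4.74, 4.39 and 4.47 at day 2. It read 4.09, 4.51, 4.29, 4.82 and 4.25 at day 5 and 4.63, 4.24, 3.87, 4.52 and 4.65 at day 30. No group stood apart and the changes were 0.01, -0.02 and -0.03, with standard errors of 0.15 to 0.21. MDC1, the adaptor on phosphorylated H2AFX, was lower in all 5 pairs at day 2 (-0.29) and then higher at day 5 than at day 2 in 4 of 5 (0.47, standard error 0.18, adjusted p = 0.972). RNF8, a ubiquitin ligase at breaks, gave 0.13, 0.05 and 0.01.

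Genes of non-homologous end joining differed in sign. PRKDC, the catalytic subunit of DNA-dependent protein kinase, read -0.62, 0.06, -0.52, 0.04 and -0.12 before irradiation, -0.49, -0.42, -0.74, 0.01 and -0.74 at day 2 and -1.37, -0.18, -0.89, -0.27 and -0.84 at day 5. At day 30 it read -0.78, -0.12, -0.38, -0.14 and -0.51. All 5 pairs were lower at day 5 (-0.48, standard error 0.15, adjusted p = 0.345), replicates 1 and 5 most, with overlap between the groups. A second PRKDC probe gave 0.18 at day 5 and 0.48 at day 2, and the mean over both gave -0.15 at day 5, so the direction depended on the probe. The second probe was dim, with a mean of -3.53 before irradiation, and was well above background on 15 arrays.

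The Ku subunits, which bind free ends, differed in sign. XRCC5 (Ku80) read 2.00, 2.09, 2.36, 2.13 and 2.21 before irradiation and 2.44, 1.96, 2.88, 2.35 and 2.33 at day 2. It read 2.44, 2.02, 2.26, 2.03 and 2.26 at day 5 and 2.65, 2.12, 2.22, 2.55 and 2.19 at day 30, and the ranges overlapped with changes of 0.23, 0.05 and 0.19. XRCC6 (Ku70) read 6.83, 6.77, 6.76, 6.66 and 6.20 before and 6.29, 6.52, 6.52, 6.32 and 6.36 at day 2, then 6.52, 6.48, 6.39, 6.52 and 5.87 at day 5 and 6.07, 6.35, 6.00, 6.43 and 6.36 at day 30. Replicate 5 started lowest, and the other 4 were below their own start on all 3 days. The changes were -0.24, -0.29 and -0.40 with standard errors of 0.16, 0.13 and 0.19. DCLRE1C (Artemis), the nuclease that trims ends, was lower in every pair on all 3 days by small amounts (-0.19, -0.20 and -0.11). XRCC4, the scaffold of the ligation step, was higher in 4, 3 and 4 of 5 pairs (0.14, 0.11 and 0.31).

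Homologous recombination and the Fanconi pathway, which repair breaks and crosslinks in dividing cells, were mixed. BRCA1, which promotes end resection, read -1.74, -1.56, -1.93, -2.02 and -1.70 before irradiation and -1.40, -1.93, -1.29, -1.99 and -1.39 at day 2. It read -1.60, -1.84, -1.71, -1.35 and -1.30 at day 5 and -1.45, -1.33, -2.01, -1.16 and -0.73 at day 30. At day 30, 4 of 5 arrays stood above their own starting value and replicate 5 highest (0.46, standard error 0.21, adjusted p = 0.298). FANCD2, the protein ubiquitinated at crosslinks, read 1.16, -0.02, 0.71, 0.30 and 0.50 before irradiation and 0.32, -0.25, 0.28, 0.08 and 0.27 at day 2. At day 5 it read 0.23, -0.32, 0.88, 0.23 and 0.21 and at day 30 0.67, 0.15, 0.58, 0.68 and 0.30. All 5 day 2 arrays were below their own start, replicate 1 most (-0.39, standard error 0.16, adjusted p = 0.309), and all 5 day 30 arrays were above their day 2 arrays (0.34, standard error 0.14, adjusted p = 0.385). Another FANCD2 probe gave -0.55 at day 2 and 0.58 at day 30, the last higher in all 5 pairs. It was well above background on only 13 of the 20 arrays. A further FANCD2 probe, well above background on all 20 arrays, gave -0.11 at day 2 and 0.16 at day 30. The brightest probe gave -0.05 at day 30. FANCA, of the Fanconi core complex, was dim and lower in 4 of 5 pairs at day 2 (-0.61), with replicate 3 at -3.72, and normexp background correction turned this change to 0.24. The brightest probes listed for XRCC3 and XRCC2, which act in strand exchange, and for RAD52, a mediator, gave changes between -0.25 and 0.32. The brightest XRCC3 probe gave 0.32 at day 5 and the other -0.23. Their means before irradiation were 8.90 and -1.35. Whether the brightest XRCC3 probe and the XRCC2 probe read RNA of these genes alone was not tested, so their changes may not be changes of these genes.

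PARP1, the enzyme that senses strand breaks and builds poly(ADP-ribose) chains, was the only gene of the 36 with an unadjusted p under 0.05 on all 3 days (2.78% of them, background 2.99%). It read 1.83, 1.83, 1.84, 2.39 and 1.94 before irradiation in replicates 1 to 5. It read 1.45, 1.52, 1.25, 1.87 and 1.59 at day 2, 1.57, 1.31, 1.64, 1.75 and 0.84 at day 5 and 0.79, 1.67, 0.98, 2.04 and 1.53 at day 30. Every pair was lower on each day. At day 5 all 5 arrays stood below all 5 pre-irradiation arrays, which 0.339% of all genes showed in that direction, while at days 2 and 30 the pre-irradiation range was entered by replicate 4. The changes were -0.43 (standard error 0.14, adjusted p = 0.242), -0.54 (0.17, 0.354) and -0.56 (0.19, 0.204). The second PARP1 probe, in a separate part of the transcript, gave -0.31, -0.58 and -0.53, lower in 4, 5 and 5 pairs. The 3 days share the pre-irradiation arrays, on which replicate 4 stood above the others, so they are not 3 separate observations. With normexp background correction PARP1 and ERCC2 passed the threshold at day 30 (-0.56, adjusted p = 0.0805, and -0.47, adjusted p = 0.0871). No other gene of the 36 did so in any setting tried. The share of all genes that passed with normexp was not counted, so these calls have no background to be set against. Without replicate 4 the unadjusted p of PARP1 at day 2 was 0.062, and without replicate 3 that at day 30 was 0.061. Leaving out either replicate thus ended the reading on all 3 days. With slide in place of replicate as the block the unadjusted p of PARP1 was 0.054 and 0.061 at days 2 and 5. Over all settings tried its largest unadjusted p was 0.108 at day 2 and 0.067 at day 30. With the values deposited by the authors, no gene of the set was under 0.05 at day 30 (smallest unadjusted p = 0.062 by limma, for ERCC2).

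**Figure D4:**
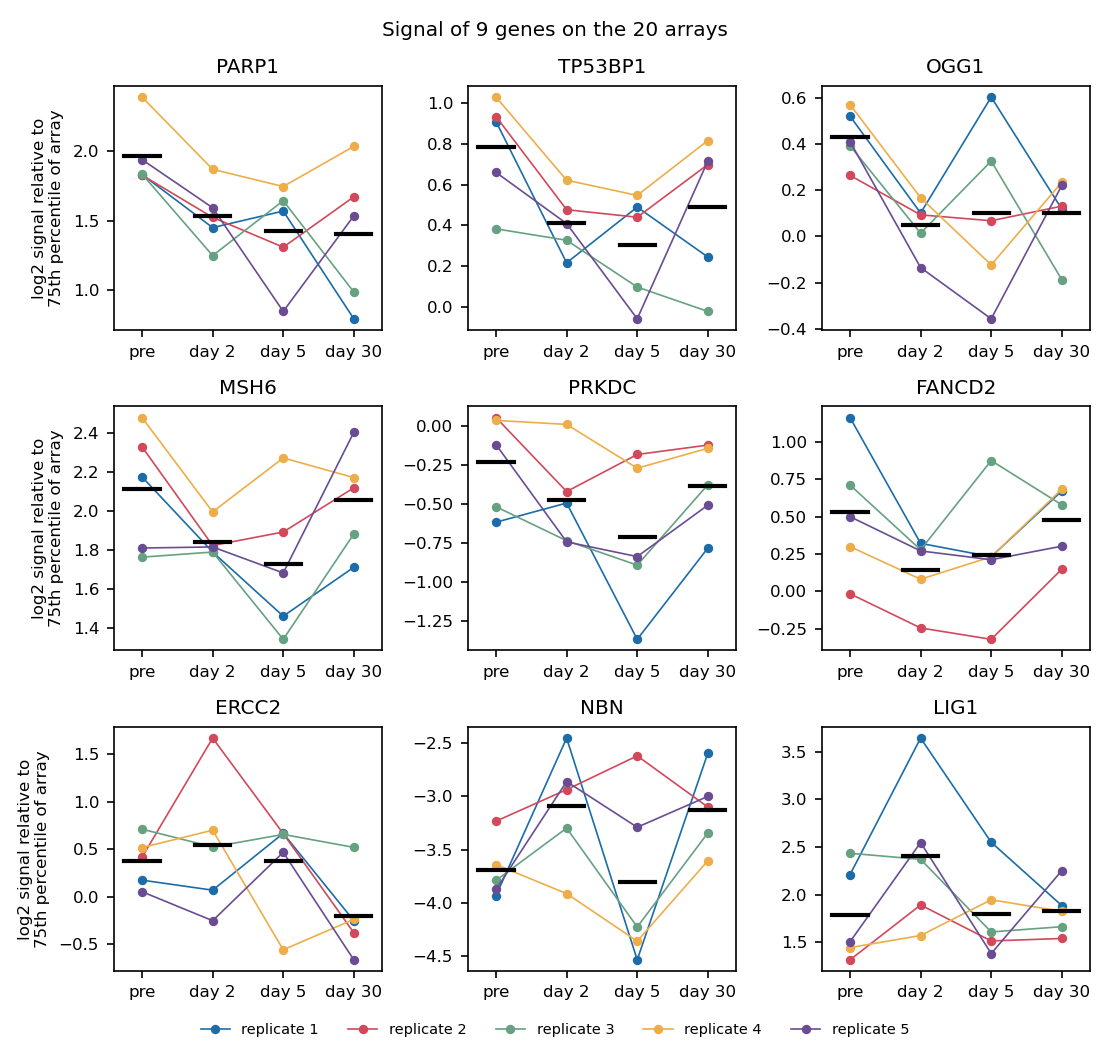
Log2 signal relative to the 75th percentile of the array, for 9 genes on the 20 arrays; lines join arrays of 1 replicate number and black bars are group means. Every PARP1 line stays below its starting point, from 1.83 to 2.39, all 5 OGG1 points at day 2 lie below those before irradiation, and 4 of 5 ERCC2 points do so at day 30.

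Other genes of base excision and single-strand break repair were mixed. OGG1, the glycosylase for oxidised guanine, read 0.52, 0.26, 0.39, 0.57 and 0.41 before irradiation and 0.10, 0.09, 0.01, 0.17 and -0.14 at day 2. It read 0.60, 0.07, 0.33, -0.12 and -0.36 at day 5 and 0.12, 0.13, -0.19, 0.23 and 0.22 at day 30. At day 2 all 5 arrays were below all 5 pre-irradiation arrays (-0.38, standard error 0.14, adjusted p = 0.276), a pattern shown by 1.05% of all genes, and at day 30 they were too (-0.33; 1.22% of all genes), with replicate 3 lowest. A second OGG1 probe gave -0.04 at day 2, the mean over both probes -0.21, and normexp -0.25 for the brightest. POLB, the polymerase that fills excised gaps, read -1.86, -1.56, -1.54, -1.42 and -1.72 before irradiation and -1.25, -1.73, -1.20, -1.39 and -1.17 at day 2. It read -1.52, -1.26, -1.51, -1.64 and -1.52 at day 5 and -1.26, -1.55, -1.61, -1.53 and -1.68 at day 30. All 4 groups overlapped, and day 2 was higher in 4 of 5 pairs (0.27, standard error 0.17). LIG1, the replicative DNA ligase, was higher in 4 of 5 pairs at day 2 (0.62, standard error 0.24, adjusted p = 0.294), with replicate 1 at 3.64 against 2.21 before, and had 0.02 at day 5. Normexp background correction reduced the day 2 change of LIG1 to 0.14. PARP2, XRCC1, UNG and FEN1 gave changes between -0.33 and 0.02.

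In nucleotide excision repair, ERCC2 (XPD), a helicase of the transcription factor TFIIH, read 0.18, 0.42, 0.71, 0.52 and 0.06 before irradiation and 0.07, 1.67, 0.53, 0.70 and -0.25 at day 2. It read 0.67, 0.67, 0.66, -0.56 and 0.47 at day 5 and -0.25, -0.38, 0.52, -0.24 and -0.66 at day 30. Day 30 was lower in all 5 pairs (-0.58, standard error 0.17, adjusted p = 0.177), 4 of the 5 arrays lying below all pre-irradiation arrays and replicate 3 within them, and its second probe gave -0.57. Day 2 and day 5 did not share that reading (0.17 and 0.0048). ERCC3 (XPB), the other TFIIH helicase, was lower in 4, 4 and 5 pairs (-0.41, -0.18 and -0.39), and normexp gave -0.16 at day 2. ERCC1, an incision endonuclease subunit, had -0.26, -0.09 and -0.32.

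Of mismatch repair and single-strand binding, MSH6, a subunit of the mismatch sensor, read 2.17, 2.33, 1.76, 2.48 and 1.81 before irradiation, 1.79, 1.82, 1.79, 1.99 and 1.81 at day 2 and 1.46, 1.89, 1.34, 2.27 and 1.68 at day 5. At day 30 it read 1.71, 2.12, 1.88, 2.17 and 2.40. Day 5 was lower in all 5 pairs with overlapping ranges (-0.38, standard error 0.15, adjusted p = 0.412), and day 30 was near the start (-0.05), with replicate 5 the highest of its group. RPA2, a subunit of replication protein A, was lower in all 5 pairs at day 5 (-0.33), and RPA1 gave -0.16, 0.14 and 0.02.

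**Figure D5:**
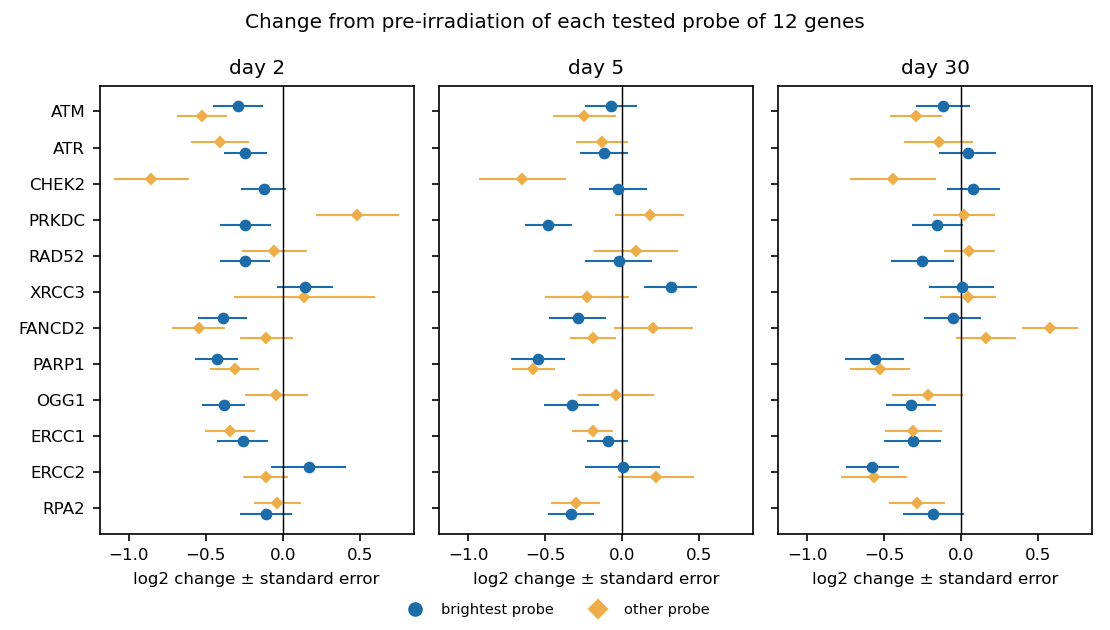
Log2 change from pre-irradiation with standard error for each tested probe of the 12 genes that had more than 1, at day 2, day 5 and day 30; circles are the brightest probes and diamonds the others. PARP1 probes lie together on all days while CHEK2, FANCD2 and PRKDC probes part at one day or more.

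Comparing days with each other, no gene of the set passed the threshold either, where 0%, 0.0565% and 0% of all genes did for day 5 against 2, day 30 against 2 and day 30 against 5. Unadjusted p under 0.05 was seen for 2 (background 3.79%), 3 (13.3%) and 0 (8.78%) of the 36 genes. At day 30 against day 2 these were RAD50 and FANCD2, both higher, and ERCC2, with a change of -0.74, where replicate 2 alone had -2.05 and the change without it was -0.42. The mean over FANCD2 probes gave 0.58, with 1.12 from the probe well above background on 13 arrays and 0.34 and 0.27 from the others. At day 5 against day 2 they were MDC1 and LIG1, each to 1 side in 4 of 5 pairs, and normexp took the LIG1 difference from -0.60 to -0.12.

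Across the 3 days, 18 of the 36 genes were lower on average each time (background 30.1%). Another 8 were higher each time (background 28.5%), namely BRCA1, CHEK1, LIG1, POLB, RNF8, XRCC3, XRCC4 and XRCC5, and 10 were mixed. XRCC3 counts here by its brightest probe, while its other tested probe was lower at day 5. Whether the brightest reads XRCC3 RNA alone was not tested. The 3 days share their pre-irradiation arrays. A further 98 of 112 listed genes were measured, most of them partners in these pathways, with 13 p53-induced genes and 9 of direct reversal and translesion synthesis among them, and none passed the threshold on any of the 3 days. Their medians were -0.09, -0.02 and -0.06. Of the 98, an unadjusted p under 0.05 was seen for 8 higher and 8 lower at day 2, 6 and 6 at day 5, and 3 and 4 at day 30. The shares of all genes, higher and lower, were 8.54% and 6.22% at day 2, 7.24% and 3.79% at day 5, and 7.67% and 10.3% at day 30. The 5 largest at day 2 with 1 direction in every pair were CDKN1A (a cell cycle inhibitor induced by p53, 1.26), BBC3 (a pro-apoptotic p53 target, 0.98), MLH3 (0.71), MDM2 (the ligase that restrains p53, 0.61) and ERCC4 (-0.53). At day 5 the 5 largest included RAD54L (0.56), RAD1 (0.51), BBC3 (0.48) and FANCM (0.45). At day 30 they included UVSSA, a factor of transcription-coupled repair (-1.48, adjusted p = 0.120), RAD54L (0.82), APEX2 (-0.58) and PPM1D (0.51). The 13 p53-induced genes were higher in 11, 10 and 6 cases, with medians of 0.29, 0.19 and -0.03, while the 36 repair genes had medians of -0.21, -0.09 and -0.05 on the same arrays.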

How the data were processed

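The 20 deposited array files hold intensities that the authors extracted with Agilent Feature Extraction, version 10.7 per the labels. The file headers give 12.0.2.2 as the version of the grid placement step. The processed intensity was background-subtracted and detrended within each array. Spots with outlier flags and control spots were dropped, log2 values were averaged over the spots of a probe, and the 75th percentile over non-control spots was subtracted. Probes well above background on 5 or more of 20 arrays were kept (19961 of 34127). Comparisons were fitted 2 groups at a time by limma 3.58.1 in R 4.3.3, with the replicate number as a block because the study paired by animal, at least 4 of 5 pairs and Benjamini-Hochberg adjustment over all kept probes. Shares over all genes used the brightest probe of 15929 genes. Pairing was checked on deviations from group means: same-numbered arrays correlated at -0.16 to 0.65 (mean 0.28, over 0.1 in 25 of 30). The mean for other numbers was -0.07, but taking deviations within groups of 5 ties it to the same-number mean, so it is no separate check. If 2 arrays did not come from separate animals, p-values measure a partly technical spread. The number of arrays limits precision.

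The table of log2 values deposited by the authors (5884 probes, 5 genes of the set) was an alternative. Its values matched log2 processed intensity plus 1 constant per array within 0.01 for at least 99.0% of values. Column medians ran from 7.55 to 7.83, and why its other probes were left out is not given in the sources used here. Alternatives were quantile and median scaling, normexp (offset 50), no filter, a filter at all 20 arrays, no replicate block, slide as block, all arrays in 1 fit, the mean over probes, an intensity trend, a test of each probe alone and each replicate left out. Code was tested on simulated data. Genes, lists and tests were chosen with earlier results of these data known. By rule, genes with an unadjusted p under 0.05 and 1 direction in every pair against pre-irradiation, and a fixed set of 13, were given array by array, and the 5 largest of the other listed genes per day were named, except some that are not reported here. Symbols are the array's own, of which 38 of 40 are current rhesus symbols.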

Additional observations from a re-analysis of the deposited data

Results flagged for a closer look

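Within the 5 arrays of a group, 8 of 144 readings of the 36 genes had 1 array far from the other 4, by Dixon's criterion; chance alone flags about 1 in 20 groups. PARP1 before irradiation read 2.39 in replicate 4, above 1.83 to 1.94 in the others, and this array enters all 3 PARP1 comparisons. XRCC6 read low in replicate 5 both before irradiation (6.20, others 6.66 to 6.83) and at day 5 (5.87, others 6.39 to 6.52). ERCC2 at day 5 read -0.56 in replicate 4, where the others read 0.47 to 0.67. FANCA at day 2 read -3.72 in replicate 3, below -2.88 to -2.67. OGG1 at day 30 read -0.19 in replicate 3, below 0.12 to 0.23. DCLRE1C at day 2 read 1.28 in replicate 1, above 0.71 to 0.85, and MSH6 at day 2 read 1.99 in replicate 4, above 1.79 to 1.82. Without replicate 4, PARP1 gave -0.41 at day 2, where its unadjusted p was then 0.062, -0.52 at day 5 and -0.62 at day 30.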

How the results depend on the processing

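With 5 pairs, a median standard error of 0.17 to 0.19 log2 limits what could be called, and dim genes (NBN, FEN1, CHEK1, FANCA) are limited by signal near background. Numbers of genes at an unadjusted p under 0.05 are given in the order day 2, 5 and 30 against pre-irradiation, then day 5 against 2, 30 against 2 and 30 against 5, which were 9, 4, 3, 2, 3 and 0 as reported. Normexp gave 5, 8, 6, 0, 2 and 1, a day 2 median of -0.11 and 2 calls at day 30. The fit with no replicate block gave 5, 2, 5, 1, 1 and 0, and slide as the block gave 4 at day 2, 0 at day 5 and 1 for day 30 against 2. All 20 arrays in 1 fit with the replicate block gave 5 at day 30 and 4 for day 30 against 5. Quantile scaling gave 5 and 3 for those. Median scaling gave 4 for day 30 against 5, a day 5 median of -0.21 and a day 30 median of 0.0097. For day 30 against 5, the mean over probes, the intensity trend and the filter at all 20 arrays gave 1 each and the test of each probe alone 2, which also gave 8 at day 5. With no filter, day 5 against 2 gave 1. The mean over probes moved the day 2 median to -0.18. The deposited values, for 4 or 5 genes, gave counts of 1, 2 and 0 against pre-irradiation, with medians of -0.11, -0.26 and -0.40, then 0 for day 5 against 2 and 1 for day 30 against 2. With each replicate left out, counts ran from 2 to 4 at day 2, 3 to 7 at day 5, 2 to 3 at day 30, 0 to 3 for day 5 against 2, 0 to 3 for day 30 against 2 and 0 to 1 for day 30 against 5, with medians of -0.19 to -0.17, -0.13 to -0.09 and -0.12 to -0.06. FANCA at day 2 turned to 0.24 with normexp. PARP1 stayed negative in all 17 alternatives on each day and at an unadjusted p under 0.05 in 14, 16 and 15 of them (-0.59 to -0.37, -0.67 to -0.41 and -0.67 to -0.44). The causes were not tested.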
